A study of Mus musculus with 2 samples.

Results

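The Ifi200 genes Ifi203, Ifi204, Ifi205, Ifi207, Ifi209 and Mndal, and their relative Aim2, were followed in the nuclear RNA of mouse macrophages. The 7 genes were chosen by symbol, all 7 were found by symbol and identifier, and they are 7 of the 55536 genes with an Ensembl identifier in the gene tables. The cells were bone marrow-derived macrophages of strain C57BL/6J, primary phagocytes grown from marrow, and their age and sex were not collected. Lipid A, the TLR4-binding moiety of lipopolysaccharide, was given at 100 ng/ml for 12 hours and washed out for 12 hours, after which the same dose was added for 20 minutes. Total RNA of the nuclear fraction, nucleoplasmic by its description, was depleted of ribosomal RNA and sequenced in 2 libraries, labelled biological replicates 1 and 2, which share a donor label and were made from 1 µg and 500 ng of RNA. The design has 1 group and no untreated cells, so no response to Lipid A was measured. Differences between the libraries cannot be told apart from the RNA input, and nothing in the labels says that the cultures came from separate animals.

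The Ifi200 (or PYHIN) proteins typically join an amino-terminal pyrin domain, which binds other pyrin domains, to carboxy-terminal HIN domains, which bind DNA. AIM2 is the best understood of them. It binds double-stranded DNA in the cytosol and recruits the adaptor ASC, which activates caspase-1 in an inflammasome. Mouse IFI204 is often studied beside human IFI16, a DNA sensor that signals to interferon genes through STING. Many genes of the family are induced by type I interferon in macrophages, and in mice they form a cluster on chromosome 1 whose size differs between strains.

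Depth was 21954179 and 17739520 expected counts over the genes of replicates 1 and 2. An expected count is an estimated number of reads that need not be whole. A count of 0 allows up to 0.137 and 0.169 CPM (3 counts scaled to the library total, counting error only). The other transcript table, made from the reads directly, held 30118122 and 31357986 estimated counts. All 8 macrophage markers reached 1 TPM (a relative transcript level corrected for length, with the same total in every library), with summed levels of 2452 and 2851 TPM in replicates 1 and 2. Markers of other cells were near 0: the summed levels were 1.84 and 2.62 TPM for 6 neutrophil genes, of which Ly6g and Elane were at 0, 1.30 and 2.11 TPM for 5 dendritic cell genes, 0.0600 and 0.420 TPM for 3 B cell genes, and 0.0200 and 0.0300 TPM for 4 T and NK cell genes. The 3 mast cell genes were at 0 in both libraries.

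All 7 genes were abundant in these nuclei. By TPM over all annotated transcripts, Mndal was the highest of them in both libraries. It was not the highest by counts or, in replicate 1, over coding transcripts alone. Replicate 1 had 0.323% of its expected counts in these genes, with a 95% Wilson interval of 0.320% to 0.325%. For replicate 2 the share was 0.346%, with an interval of 0.343% to 0.348%, and both intervals cover counting error only. Their summed level was 1228 and 1525 TPM in replicates 1 and 2, or 1377 ± 210 TPM (SD, n = 2). Of the 7, 4 had a mean of 100 TPM or more, whereas 3.42% of the 12952 genes with a mean of at least 1 TPM did. The median level was 136 TPM for the 7 genes and 6.94 TPM for those 12952. The 7 genes were chosen with earlier results of these data known, so this contrast is a description only. In bulk RNA, fewer expressing cells and less RNA per cell cannot be told apart.

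Aim2 (ENSMUSG00000037860.15), the inflammasome-forming member, lies on the plus strand of chromosome 1 from 173350879 to 173466040 (mm10). It had 78.9 and 95.7 TPM in replicates 1 and 2, on 1864 and 1789 expected counts. It was the sixth of the 7 genes by TPM in both libraries.

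Ifi204 (ENSMUSG00000073489.6, minus strand, 173747293 to 173766943) encodes p204, a nuclear and cytoplasmic protein that also takes part in differentiation and transcription. Its level was 298 and 349 TPM in replicates 1 and 2, on 16408 and 12923 counts. It ranked second in both libraries, above every gene of the group except Mndal.

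Mndal (ENSMUSG00000090272.8, minus strand, 173849126 to 173942491), named for its likeness to the human myeloid nuclear differentiation antigen, had 369 and 494 TPM in replicates 1 and 2, on 12611 and 11407 counts. It held 31.2% ± 1.63 (SD, n = 2) of the summed TPM of the 7 genes. By counts that are not divided by length it came behind Ifi203 and Ifi204. The mean length behind its TPM was 1353 and 1346 bases, against 2052 and 2029 bases for Ifi204.

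Ifi203 (ENSMUSG00000039997.16, minus strand, 173920407 to 173942672) had 210 and 281 TPM in replicates 1 and 2. Its 16978 and 16324 counts were the highest of the group. Ifi207 (ENSMUSG00000073490.11, minus strand, 173723427 to 173741747) had 117 and 154 TPM in replicates 1 and 2, on 11271 and 10089 counts.

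Ifi209 (ENSMUSG00000043263.13, plus strand, 173630917 to 173647928), also called Pyhin1, had 84.2 and 103 TPM in replicates 1 and 2, on 7757 and 6628 counts. Its range over the 2 libraries overlapped that of Aim2, although Ifi209 was above Aim2 in each library. In the other transcript table Aim2 was above Ifi209 in each. Ifi205 (ENSMUSG00000054203.7, minus strand, 174011998 to 174031810) encodes p205, a protein linked in mouse macrophages to the expression of the ASC gene. It was the lowest, with 69.9 and 49.5 TPM in replicates 1 and 2, on 3952 and 2165 counts.

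The order of the 7 genes by TPM was the same in both libraries, and every pair of neighbours in it other than Ifi209 and Aim2 had ranges that did not overlap. The smallest ratio of means among those separated pairs was 1.32, between Ifi204 and Ifi203, and the largest was 1.81, between Ifi203 and Ifi207. In the other table the order was also the same in both libraries, but Aim2 stood above Ifi209 there. The libraries lay further apart in that table, with a summed level of 382 and 1129 TPM in replicates 1 and 2, and the median of log2 replicate 1 over replicate 2 over all genes tested in it was -1.28. Mndal had 121 and 376 TPM there and Ifi205 26.0 and 61.2 TPM.

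**Figure D1:**
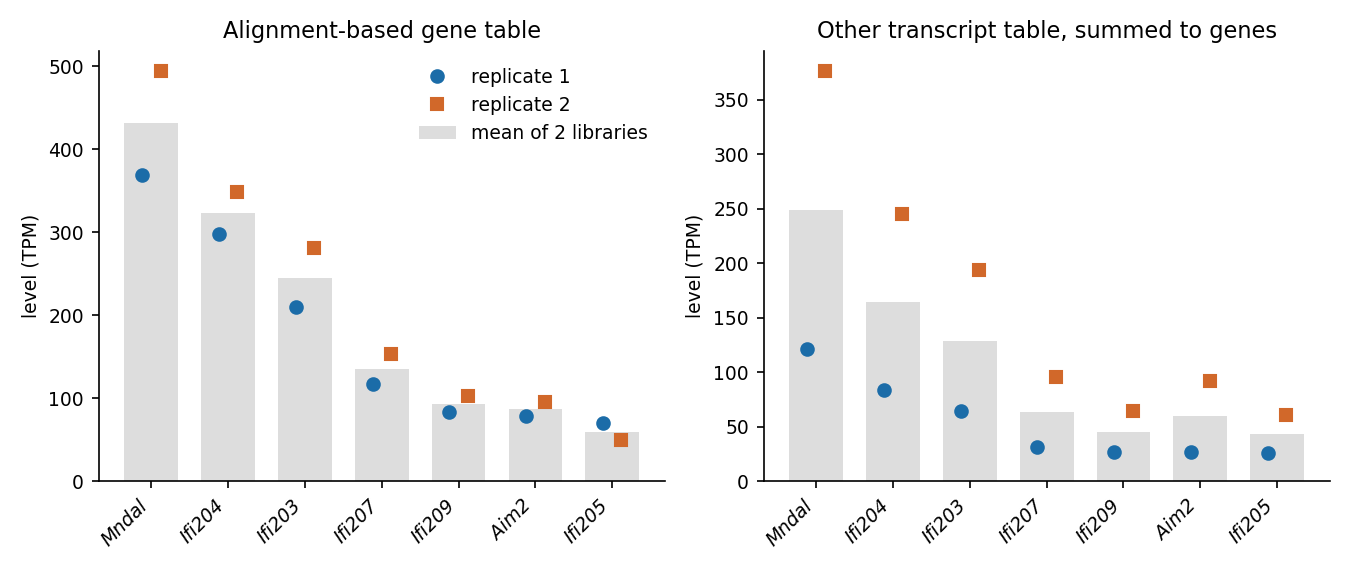
Levels in TPM (vertical axes) of the 7 genes (horizontal axes) in the alignment-based gene table on the left and in the other transcript table, summed to genes, on the right. Bars are means of 2 libraries and points are replicates 1 and 2: on the left, replicate 2 is above replicate 1 for each gene except Ifi205, which had 69.9 and 49.5 TPM, and on the right it is above for all 7.

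Levels of the 7 genes were set beside those of 38 interferon-stimulated genes. The nearest, by the distance over log2(TPM + 1) in 2 libraries, was Oasl2 for Mndal (distance 0.13), Parp14 for Ifi204 (0.31), Trim30a for Ifi203 (0.48), Rtp4 for Ifi207 (0.16), Ifi44 for Ifi209 (0.32), Parp9 for Aim2 (0.31) and Ifi47 for Ifi205 (0.10). Ifi47, for instance, had 68.0 and 46.3 TPM in replicates 1 and 2, close to the 69.9 and 49.5 TPM of Ifi205. With 2 libraries of 1 group this measures likeness of level only.

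The 7 genes lie among 14 other annotated genes in an interval of 680932 bases on chromosome 1, and some of these were as high. Of the 14, 6 are protein-coding and 7 reached 1 TPM in both libraries. Ifi213 had 360.5 and 338 TPM in replicates 1 and 2, which is above Ifi203 in both and above Ifi204 in replicate 1. Ifi211 had 136 and 142 TPM, close to Ifi207. Lower levels were found for Ifi206 (40.1 and 41.2 TPM), Ifi208 (39.1 and 27.5 TPM), the pseudogene Ifi203-ps (31.2 and 27.2 TPM), Ifi214 (6.12 and 7.09 TPM) and the pseudogene Gm18752 (2.94 and 2.00 TPM). Ifi202b, which C57BL/6 mice are known to express little, had 14 and 20 counts, or 0.320 and 0.660 TPM. This was named after its values were seen.

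Promoter windows of several members hold a short sequence of the kind bound by interferon-activated transcription factors. RefSeq windows on GRCm38.p6, from 250 bases before to 50 bases after an annotated start, were given for 6 of the 7 genes (8 windows), Ifi204 not among them. They were searched on both strands for GAAANNGAAA, the core of the interferon-stimulated response element, and for TTCNNNGAA, the gamma-activated site. The first motif was found in windows of 4 of these 6 genes, Ifi203, Ifi205, Ifi207 and Mndal. This compares with 3.99% of all 27025 genes with a window and 3.44% of all 32851 windows of the same length. Stretches of these windows are alike, as given below, so the 4 genes are not separate observations. Other cluster genes held the motif too, namely Ifi206, Ifi208, Ifi211, Ifi213 and Ifi214, while Ifi202b did not. Among interferon-stimulated genes, 16 of the 30 with a window held it. None of the 15 AIM2 inflammasome genes, a list that includes genes of other inflammasomes, or 15 DNA sensing genes with a window did. With lists of 15 genes this cannot be told apart from the 3.99% of all genes. The second motif was in none of the 8 windows, so no matches of the motifs overlapped, and it was in 8.30% of all windows. A match is only a description of these letters.

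The stretches below, each of 100 bases and written 5′ to 3′ on the strand of the gene, are shown because they place this sequence side by side in 5 family members. Capitals mark the motif or, in Ifi209, the part of it that is present. They lie at chr1:173880169-173880268 for Mndal, chr1:173942473-173942572 for Ifi203, chr1:173741796-173741895 for Ifi207, chr1:174031835-174031934 for Ifi205 (all minus strand) and chr1:173630735-173630834 for Ifi209 (plus strand).
Mndal: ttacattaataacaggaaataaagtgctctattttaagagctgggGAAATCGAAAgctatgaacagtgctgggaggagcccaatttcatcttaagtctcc
Ifi203: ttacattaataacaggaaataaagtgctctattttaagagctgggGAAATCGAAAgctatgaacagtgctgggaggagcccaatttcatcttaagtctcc
Ifi207: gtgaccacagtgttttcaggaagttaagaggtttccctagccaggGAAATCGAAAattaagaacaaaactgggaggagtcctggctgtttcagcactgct
Ifi205: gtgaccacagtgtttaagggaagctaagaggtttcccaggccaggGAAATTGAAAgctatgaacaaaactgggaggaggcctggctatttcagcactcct
Ifi209: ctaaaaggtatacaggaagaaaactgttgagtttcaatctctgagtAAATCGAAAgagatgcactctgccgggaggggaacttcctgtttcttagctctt

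The Mndal and Ifi203 stretches were identical at all 100 bases, and those of Ifi207 and Ifi205 at 87 of 100, whereas the other pairs of stretches matched at 46 to 56 bases when set side by side without gaps. GAAATCGAAA, as in Mndal, Ifi203 and Ifi207, began 36, 35 and 41 bases before the annotated start of the window holding it. It occurred in 16 of the 32851 windows. Of the 16 genes with it, 7 belong to the cluster: these 3, and Ifi206, Ifi208, Ifi213 and Ifi214. The version of Ifi205, GAAATTGAAA, lay 134 bases before the start, and Ifi205 had a further match, GAAAGTGAAA, on the opposite strand 23 bases after it. In Ifi209 only the last 9 bases, AAATCGAAA, were present, a word found in 41 of all windows. A further window of Mndal held GAAAGAGAAA on the opposite strand. The further window of Ifi203, at another annotated start, held no match. The window of Aim2 held no match, but only 1 of the 7 annotated Aim2 transcripts starts within 300 bases of its RefSeq start, and that transcript had 10.2 and 9.68 TPM, so the other Aim2 starts were not examined. For Mndal, 4 of 10 transcripts, with 105 and 127 of its 369 and 494 TPM, start within 300 bases of the start whose window is printed.

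Part of the nuclear signal of 4 genes was assigned to transcripts with a retained intron, an annotated class in which an intron is left unspliced. Such transcripts exist in the annotation for Ifi203, Ifi204, Ifi205 and Mndal only, and they took 28.5% ± 1.64 (SD, n = 2) of the summed TPM of the 7 genes. For Ifi204 they took 38.3% of the gene's TPM in replicate 1 and 42.0% in replicate 2, and for Mndal 40.4% and 42.5%. For Ifi203 the shares were 24.8% and 26.4%, and for Ifi205 29.4% and 44.7%. These are shares of TPM, and the order of genes differs by counts, which are not divided by length. By counts, the retained-intron transcript held 1883 of 3952 and 1384 of 2165 for Ifi205 in replicates 1 and 2. For Ifi204 it held 4942 of 16408 and 4319 of 12923, a smaller part. Among 6243 protein-coding genes with such a transcript and a mean of at least 1 TPM, the median share was 24.8% in replicate 1 and 27.3% in replicate 2, with an interquartile range between 13.4% and 39.8% in replicate 1 and between 13.0% and 44.9% in replicate 2. The 4 shares lay from percentile 48.5 to 75.7 of these genes over both libraries. In the other table they lay from percentile 56.4, for Ifi203, to 85.6, for Ifi205, both in replicate 2.

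The transcripts behind these shares differed in their detail between genes. In Ifi204 the coding transcript Ifi204-201, of 2296 bases, had 184 and 202 TPM, and the retained-intron transcript Ifi204-202, of 1659 bases, had 114 and 146 TPM. In Mndal the coding Mndal-201 led with 131 and 164 TPM, followed by the retained-intron transcripts Mndal-205 with 93.9 and 135 TPM and Mndal-203 with 55.3 and 74.7 TPM. Ifi203 was split between the coding Ifi203-202 (48.6 and 87.5 TPM), Ifi203-205 (57.8 and 56.4 TPM) and Ifi203-203 (18.9 and 36.2 TPM) and the retained-intron Ifi203-207 (52.0 and 74.2 TPM). The other table put Ifi203-203 at 0.0974 and 0.157 TPM, so the level of that transcript depends on how reads were assigned. In Ifi205 the coding Ifi205-201 had 49.4 and 27.3 TPM, while the retained-intron Ifi205-202 had 20.6 and 22.1 TPM, a smaller difference between libraries.

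Ifi207, Ifi209 and Aim2 showed other patterns. All 117 and 154 TPM of Ifi207 were assigned to Ifi207-201, and its other coding transcript was listed at 0 in both libraries, whereas the other table gave that transcript 12.7% and 17.7% of the gene. In Ifi209 the full coding transcript Ifi209-201 took 92.0% and 96.2%, and the remainder was Ifi209-202, a transcript annotated for nonsense-mediated decay. In the other table Ifi209-201 took 61.8% and 83.6%, and Ifi209-202 took 38.2% and 16.4%. Coding transcripts took 47.4% and 52.1% of Aim2 in replicates 1 and 2. Its 383-base processed transcript Aim2-206 had 28.9 and 33.9 TPM on 149 and 115 counts, against 24.6 and 40.2 TPM for the coding Aim2-204 on 1374 and 1532 counts. Counted by coding transcripts alone, which was chosen after seeing the data, Aim2 averaged 43.7 ± 8.81 TPM, Mndal 204 ± 32.1 TPM and Ifi204 193 ± 12.9 TPM (SD, n = 2), and Ifi204 was above Mndal in replicate 1.

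**Figure D2:**
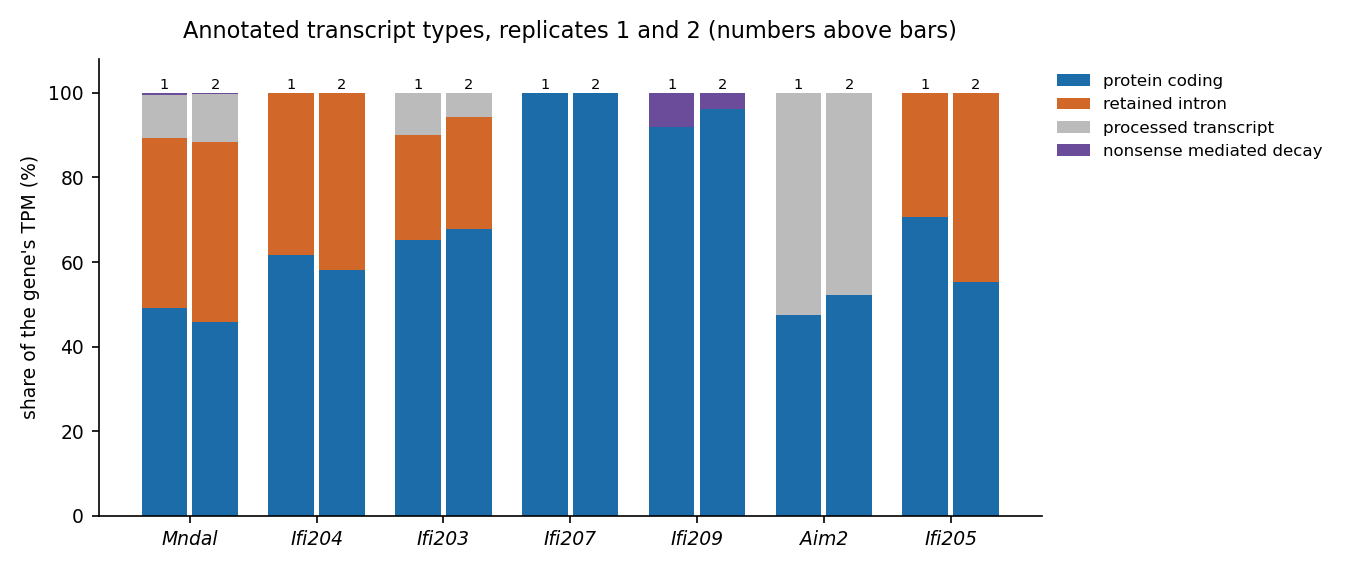
Share of each gene's TPM (vertical axis, percent) assigned to annotated transcript types in replicates 1 and 2 (paired bars, numbered) for the 7 genes (horizontal axis). Retained-intron transcripts take 24.8% to 44.7% in Mndal, Ifi204, Ifi203 and Ifi205, and processed transcripts take the part of Aim2 that is not coding.

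Between the libraries, none of the 7 genes differed over 2-fold, while 7.29% of the 12952 tested genes did. With only 7 genes, a count of 0 cannot be told apart from that share. The difference is log2(TPM + 1) in replicate 1 minus that in replicate 2, less the median of this quantity over those genes, -0.29. With 1 library on each side it has no test. By this measure 4 of the 7 genes were higher in replicate 1, against 50% of all tested genes by construction, and the median of the 7 was 0.01. Mndal, Ifi203 and Ifi207 had -0.13, -0.13 and -0.10, and Ifi204, Ifi209 and Aim2 had 0.06, 0.01 and 0.01. Signs this close to 0 depended on the setting. Settings that differ in centring or filter subtract another constant from all genes alike, while the others can move genes separately. Over 10 settings Ifi204 ran from -0.25 to 0.18, Ifi209 from -0.28 to 0.07 and Aim2 from -0.43 to 0.06. The lowest values of Ifi204 and Aim2 came from the other transcript table. Mndal ran from -0.42 to -0.02, Ifi203 from -0.42 to -0.08, and Ifi207 from -0.39 to just under 0. With centred TPM of the gene table, all 6 of these differences lay inside the interquartile range of the tested genes, -0.32 to 0.33.

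Ifi205 stood apart with 0.78, or 1.72-fold higher in replicate 1 relative to the typical gene. The difference was 0.49 without centring and 0.69 with counts scaled by TMM (a trimmed mean of ratios), but 0.08 in the other transcript table. That table gave Ifi205 more counts, 7631 in replicate 1 and 7996 in replicate 2, which is 1.93 and 3.69 times the 3952 and 2165 of the gene table. Its retained-intron transcript Ifi205-202 had 1883 and 1384 counts beside the gene table, and 4848 and 6245 in the other table. Its coding transcript Ifi205-201 had 2069 and 781 counts, and 2783 and 1751 in the other table. For the median gene the ratio of the tables was 1.28 and 1.74, and the 2 ratios of Ifi205 lay at percentiles 88.4 and 93.7. The other members had ratios of 1.20 to 1.55 in replicate 1 and 1.52 to 2.12 in replicate 2. The difference of Ifi205 was thus smaller in the other table than in any other setting tried.

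**Figure D3:**
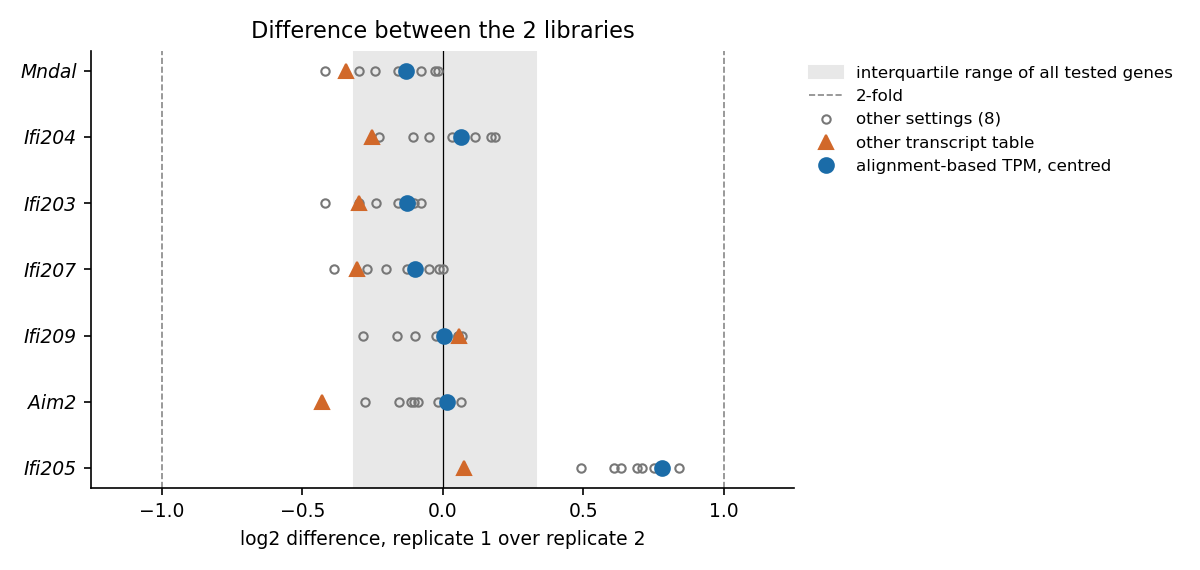
Log2 difference between libraries, replicate 1 over replicate 2 (horizontal axis), for the 7 genes (vertical axis), with filled circles for the centred alignment-based TPM, triangles for the other transcript table and open circles for 8 other settings. The shaded band is the interquartile range of all tested genes, from -0.32 to 0.33, and Ifi205 lies at 0.78 in the one table and 0.08 in the other.

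Neighbouring genes and interferon-stimulated genes gave other values between the same libraries. In the cluster, Ifi208 had a difference of 0.78 (0.37 in the other table), Gm18752 0.68 (0.55), Ifi203-ps 0.48 (0.37), Ifi213 0.38 (0.14), Ifi206 0.25 (0.13), Ifi211 0.23 (0.08) and Ifi214 0.10 (-0.25). Of the 38 interferon-stimulated genes, 36 were higher in replicate 1, 10 of them over 2-fold, with a median of 0.58, whereas the median of the 7 genes was 0.01. By comparison, 50% of all tested genes were higher in replicate 1, and 7.29% differed over 2-fold in either direction. Rsad2, Ifit2 and Mx1, the highest of that list, had 1.17, 0.34 and 1.20. Whether the 7 genes differ from that list was not tested.

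The genes of this family share sequence, which limits how well reads can be assigned among them. As a measure, the distinct words of 31 bases in all annotated transcripts of a gene were looked up in all other annotated transcripts. Ifi209 shared the most, with 47.2% of its 3528 words, and Aim2 the least, with 5.26% of 3516. Ifi204 shared 34.6%, Mndal 28.7%, Ifi205 22.1%, Ifi203 21.9% and Ifi207 14.8%. With words of 100 bases the shares fell to 16.9% for Ifi209, 15.0% for Ifi205, 10.7% for Ifi204, 6.38% for Mndal, 2.84% for Ifi203 and 0.790% for Ifi207, and Aim2 shared none. Read length was not used here.

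Of words of 31 bases, Ifi203, Ifi204, Ifi205 and Ifi209 shared more with cluster genes outside the 7 than with members, while Mndal (24.0% with members, 17.3% with other cluster genes) and Ifi207 (11.9% and 10.8%) shared more with members. With words of 100 bases Ifi207 turned round, at 0.263% with members and 0.790% with other cluster genes. By 31 bases, 46.8% of those of Ifi209 occurred in Ifi214, 20.5% of those of Ifi205 and 18.9% of those of Ifi204 occurred in Ifi211, and 15.9% of those of Ifi203 occurred in the pseudogene Ifi203-ps. Between members, Mndal shared 10.4% of its words with Ifi205, 8.77% with Ifi203 and 8.06% with Ifi204. Mndal and Ifi203 also overlap on the same strand by 37 exon bases. Aim2 shared no word of 31 bases with any of the other 6 genes.

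**Figure D4:**
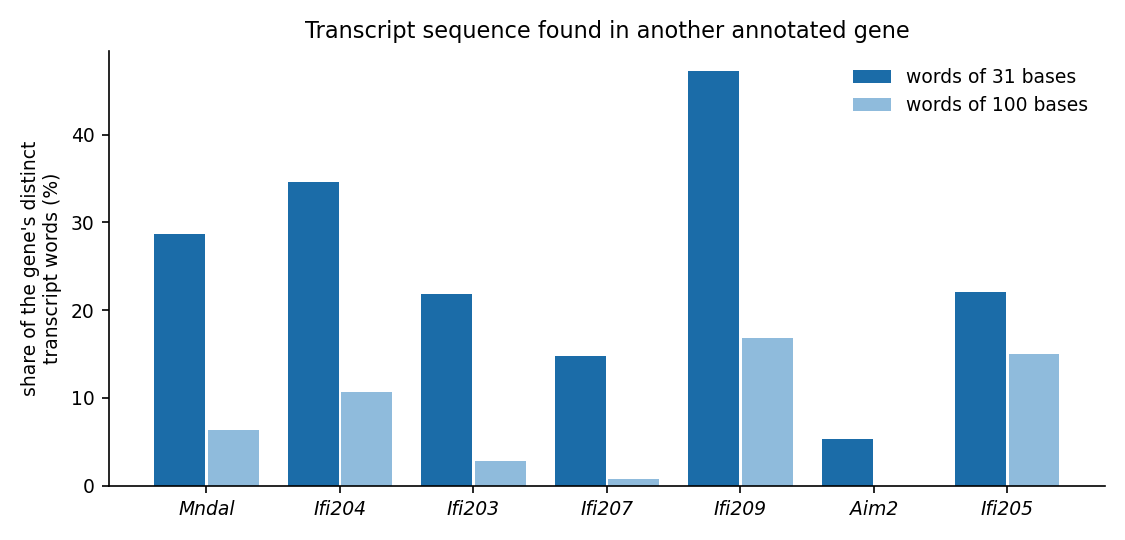
Share of the distinct transcript words of each gene (vertical axis, percent) that also occur in another annotated gene, for words of 31 and 100 bases (paired bars) and the 7 genes (horizontal axis). Ifi209 is highest at 47.2% for 31 bases, and Aim2 is lowest at 5.26% with none for 100 bases.

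The deposited uncertainty of the assignment was small beside these shares. The posterior standard deviation of the count was 27.9 and 19.1 reads for Ifi205, or 0.706% and 0.883% of its counts, and 21.9 and 17.8 reads for Ifi204, or 0.134% and 0.137%. It was at most 0.0490% for Mndal, Ifi203, Ifi207 and Ifi209, and 0 for Aim2 in both libraries. It describes assignment within a single alignment and table, and differences between tables were larger. Ifi214, the partner of Ifi209, had 574 and 490.1 counts in the gene table but 6033 and 7390.5 in the other. Among the 7 genes, the count ratio between the tables was furthest from that of the median gene for Ifi205, whereas Ifi204, Ifi209 and Mndal lay between percentiles 16.3 and 66.9 over both libraries and Aim2 at 78.4 and 75.5. Reads of sequence shared between genes could be split by the counting, so values of all 6 Ifi200 genes carry that uncertainty.

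Inflammasome genes, with partners of AIM2 among them, and other genes of cytosolic DNA sensing were expressed in the same libraries. All 16 genes of the AIM2 inflammasome list reached 1 TPM, with a median of 25.4 TPM, and 1 reached 100 TPM. This was Gsdmd, which encodes the pore-forming protein cut by inflammatory caspases, with 109 ± 31.3 TPM (SD, n = 2), followed by Casp4, a caspase gene of the response to intracellular lipopolysaccharide, with 56.7 ± 3.19 TPM and Ninj1, which acts in membrane rupture, with 45.1 ± 5.07 TPM. Casp1 and Pycard, the gene of ASC, had 42.6 ± 9.62 and 9.65 ± 1.53 TPM, and both were picked once their values were known. None of the 16 differed over 2-fold between libraries, against 7.29% of all tested genes. Of the 16, 11 were higher in replicate 1, against 50% of all tested genes.

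All 19 genes of the cytosolic DNA sensing list reached 1 TPM too, with a median of 23.3 TPM. The deoxynucleotide hydrolase gene Samhd1 had 399.6 ± 28.4 TPM, Irf7, a transcription factor of interferon genes, had 392 ± 202 TPM, and the kinase gene Ikbke had 307 ± 54.2 TPM (SD, n = 2). Of these 19 genes, 4 were over 2-fold higher in replicate 1 and 1 was over 2-fold lower. Over all tested genes, 7.29% differed over 2-fold in either direction. Cgas and Tmem173, the genes of the receptor cGAS and the adaptor STING of the other main pathway, had 6.05 ± 0.728 and 7.73 ± 1.07 TPM. These levels were near the median of 6.935 TPM over the 12952 tested genes and below the list median of 23.3 TPM. The choice to report this pair was made with its levels already known.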

How the data were processed

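All tables were made on mm10 with GENCODE M21, per the text files that accompany them. Expected counts and TPM per gene and transcript, as deposited, come from a transcriptome alignment, and a further deposited transcript table holds estimated counts and TPM from the reads. The authors' TPM is scaled by effective length. The deposited isoform percent is the share of a transcript in its gene's TPM, and the deposited posterior standard deviation of the count is a score in reads. The aligner, the quantifiers and the handling of strand are not stated by the labels or headers used here.

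Gene symbols came from the names in the other transcript table, and positions from GENCODE M21. Entries without an Ensembl identifier (26345) were left out. Promoter windows came from RefSeq, GRCm38.p6. No protein sequences were used here. Differences used a pseudocount of 1 and were centred over genes with a mean of at least 1 TPM. The calculation of the 2-fold count was run on simulated data with set changes and counting error only. That checks the calculation and says nothing on these libraries. With 1 group no test was possible, and no p-values are given. The study's replicate spread may be technical. The members and lists were chosen with earlier results of these data known. The text names all 7 genes, cluster genes at 1 TPM in both libraries, the 3 highest genes of each pathway list and the nearest interferon-stimulated gene of each member. Alternatives used pseudocounts of 0.1 and 5, no centring, no filter, a minimum of 10 counts, rescaled TPM (no mitochondrial genes or genes under 200 bases), the other table, counts not divided by length, TMM (edgeR 4.0.16), DESeq2 1.42.0 size factors, each replicate alone and, added later, coding transcripts alone. Software was Python 3.11.15, numpy 2.4.6, pandas 2.3.3, scipy 1.17.1, matplotlib 3.10.9 and R 4.3.3.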

Additional observations from a re-analysis of the deposited data

How the results depend on the processing

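The count of 0 genes over 2-fold different between libraries was the same under every alternative tried for it. It was not made over coding transcripts alone, where Ifi205 had 49.4 and 27.3 TPM in replicates 1 and 2. The summed level of 1377 TPM was 755 TPM in the other table (382 and 1129 TPM in replicates 1 and 2), 1706 TPM after rescaling, 866 TPM over coding transcripts alone (chosen after seeing the data) and 3342 CPM, which is not divided by length. The share of the highest gene, 31.2%, was 25.3% by CPM, where Ifi203 led, and 23.7% over coding transcripts. The retained-intron share of 28.5% was 33.9% in the other table, chosen after seeing the data. Leaving out each replicate gave 1228 to 1525 TPM, 4 to 5 genes at 100 TPM or more (3 to 6 under the other alternatives), a highest share of 30.1% to 32.4% and a retained-intron share of 27.4% to 29.7%. Levels moved by more than the spread between libraries for 7 genes in the other table, 6 after rescaling and 5 over coding transcripts. Leaving out 1 of 2 libraries cannot move a mean by more than their SD, so it says nothing on stability of single levels. For single genes, 44 alternative differences moved by more than counting error and 19 did not. The cause was not tested. No paired analysis was possible because the design has 1 group. With 2 libraries the spread is poorly known. Member genes had at least 1789 counts, but some transcript values rest on far fewer, such as 149 and 115 for Aim2-206.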

Other observations

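Outside the cluster, the genes with GAAATCGAAA in a promoter window included Ddx58, which encodes the RNA sensor RIG-I, Ripk1, a kinase of cell death signalling, and Parp11. These were picked from the 16 genes with the word after the names were seen. Ddx58, with 154 and 125 TPM in replicates 1 and 2, is also in the interferon-stimulated list.

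Gm44339, a microRNA gene annotated on the minus strand inside Ifi209, was listed at 0 in the gene table and with 79.0 and 363 estimated counts (35.0 and 399.6 TPM) in the other table. It shares 4 words of 31 bases with Ifi209. These values were picked after they were seen.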
